A study of Homo sapiens with 9 samples.

Results

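The histone genes read from poly(A)-selected RNA of A549 cells are described here. They were taken by symbol from the protein-coding rows of the deposited table of gene counts. Symbols that begin with HIST, a digit and H gave 71 clustered histone genes, and symbols of the form H1F, H2AF, H2BF or H3F gave 20 variant histone genes, so that 91 of the 58735 genes in the table were members. A narrower reading of the symbol pattern, which leaves out H3F3A, H3F3B, H1F0 and H1FX among others, gave 80 members with 9 variant genes, and the wider form was used because H3F3B is one of the genes the pattern was meant to hold.

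A549 is an established human lung adenocarcinoma line. Cells of the control group (PC3) had received a control plasmid, which the study's text names PC3.1 while the treatment labels of the 3 libraries read PC3.1, PC3.2 and PC3.3, cells of the L996 group a plasmid that overexpresses the long non-coding RNA LINC00996, and cells of the RP11 group a plasmid for the long non-coding RNA AP001189.3, with 3 libraries each. All 9 libraries thus came from transfected A549 without further treatment named in the labels. The study describes control and LINC00996 RNA as extracted in triplicate, so the 3 control libraries were used as replicates of 1 plasmid. The study's methods speak of biological replicates in general wording that does not match this number of libraries, and do not say that the libraries of a group came from separate cultures, so that the p-values measure the spread between these libraries only.

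Histones are the proteins around which DNA is wound. The clustered genes encode the bulk histones H2A, H2B, H3 and H4 and the linker histone H1 that are made while DNA is copied, and their usual mRNA is neither spliced nor polyadenylated. It ends just after a short stem-loop that is bound by the protein SLBP and cut with the help of the U7 small nuclear ribonucleoprotein. Variant histones such as H2A.Z, H3.3 and H1.0 are made throughout the cell cycle or in resting cells from genes whose mRNAs carry an ordinary poly(A) tail. A library built on poly-T beads holds polyadenylated mRNAs above all, of either class.

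Total counts ran from 15272450 in the smallest library to 18125447 in the largest. LINC00996 had 4373 to 5952 counts in the L996 libraries and 4 to 9 in the others, and AP001189.3 had 1660 to 2378 counts in the RP11 libraries and 0 to 2 in the others. All 11 markers of A549 were above 3 counts, CDKN2A, which this line has lost, had 0 counts in every library, and 6 of 14 markers of other cells had 3 counts or fewer in every library. The A549 markers summed to 13007 to 13107 CPM in the control, 18419 to 21048 CPM in the L996 and 14378 to 15064 CPM in the RP11 libraries, and the part of this difference in the results was not tested. Among the L996 libraries, replicate 1 stood apart. Spearman's rho across 16552 genes between a gene's level relative to its mean and the GC content of its longest transcript was 0.428 in that library and -0.24 and -0.42 in the other L996 libraries. It was 0.204 to 0.353 in the RP11 libraries and -0.277 to -0.0036 in the control libraries, which do not overlap.

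The stem-loop was looked for in all transcripts of GENCODE 29, whose gene starts, ends and strands equal those deposited for all 58735 genes (GRCh38). The search asked for 16 bases that begin with GG, with 6 bases on either side that can pair, G with T allowed, around a loop of 4 bases that begins with TTT. It matched 32 members, 31 of them clustered genes and the other H2AFX. The same search matched 4.91% of 19831 other protein-coding genes. The matches in the members had 6 spellings, and since these were taken from the members, every matched member holds 1 of them. Of the other protein-coding genes, 2 held 1 of these spellings (0.0101%). The commonest spelling stood in 17 members. Sequences around the loop are shown for genes on which the results below turn, in the sense of the transcript, 5′ to 3′, with the stem-loop in capitals.
HIST1H2AC (chr6:26124664-26124689, plus strand): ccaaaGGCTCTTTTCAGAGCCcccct
HIST2H2BE (chr1:149886183-149886208, minus strand): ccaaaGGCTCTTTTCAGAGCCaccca
HIST1H2BC (chr6:26123467-26123492, minus strand): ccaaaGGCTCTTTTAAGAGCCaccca
HIST1H4I (chr6:27139649-27139674, plus strand): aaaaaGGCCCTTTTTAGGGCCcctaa
HIST3H2A (chr1:228457364-228457389, minus strand): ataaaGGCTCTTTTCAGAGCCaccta
H2AFX (chr11:119094893-119094918, minus strand): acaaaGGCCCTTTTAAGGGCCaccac
The paired shape and the T-rich loop that all 6 share were set by the search itself. The 32 matches all lay in the 3′ untranslated part of their transcript.

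The annotated gene models differ in what lies beyond these letters. In HIST1H2AC the longest transcript goes on for 1128 bases past the stem-loop, in HIST2H2BE for 1729 bases and in H2AFX for 1044 bases. A model that went on for more than 100 bases, or that had another coding transcript without the loop, was counted as running past it. There were 23 such clustered genes, 8 whose model ended at the loop, 33 whose model held the coding part only, and 7 with longer models in which no loop was found. The 23 genes that run past the loop held 67.1% of the 45002 clustered counts, and 1 of them had 3 counts or fewer in every library. The 33 coding-only models held 27.8%, with 13.3% of all clustered counts from HIST1H2BK and 12.2% from HIST1H1C, and 17 of them had 3 counts or fewer in every library. The 8 models that end at the loop held 0.773% of the counts and the remaining 7 held 4.32%.

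Of all 91 members, 31 had 3 counts or fewer in every library and 14 of these had none at all. The clustered genes at that floor number 21 and include HIST1H1A, HIST1H2AA, HIST1H2AB, HIST1H2AD and HIST1H2AE. A level below 3 counts a library could not be seen, and this floor covers counting error only. It sets no limit for the 14 of the 31 genes that share sequence with another gene or overlap its exons, such as HIST1H2AD, whose reads may have been given to that gene or to neither. A further 23 clustered genes lay above the floor but were too low to be tested. The 37 members that passed edgeR's filter on low counts in at least 1 comparison were 27 clustered and 10 variant genes. The 5 clustered genes with most counts, HIST1H2AC, HIST1H2BK, HIST1H1C, HIST2H2BE and HIST1H2BD, together held 64.3% of the clustered counts.

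Levels are given as CPM, counts scaled to a common library total with TMM factors, and between genes as CPM per kilobase of deposited gene length. Over the 9 libraries H1F0, which encodes the linker histone H1.0, had the highest mean level per length of the variant genes at 230 CPM per kilobase, ahead of H3F3B at 117, H1FX at 91.0, H2AFZ at 56.3, H3F3A at 51.4 and H2AFX at 50.7. H3F3B and H3F3A encode the same protein, H3.3, and H2AFZ encodes H2A.Z. In the control alone the order of the last 3 differed, with means of 44.4 for H2AFX, 44.0 for H3F3A and 40.4 CPM per kilobase for H2AFZ. Among the clustered genes HIST1H2BK had a mean level per length of 104 CPM per kilobase over a coding-only model of 381 bases, followed by HIST1H1C at 56.3, HIST1H2AC at 38.2 and HIST1H2BD at 26.2. The values of HIST1H2BK and HIST1H1C per length rest on models without a 3′ part, since reads beyond the coding part are not counted for them. Over the 9 libraries H3F3A ranged from 43.0 to 74.1 CPM per kilobase and H2AFX from 43.4 to 72.5. The ranges of neighbours overlapped at all 5 steps of the order of the 6 variant genes and at all 9 steps of that of the 10 clustered genes. These ranges pool the 3 groups. In the control alone some neighbours lay further apart, such as H1F0 at 255 ± 25.8 and H3F3B at 110 ± 2.04 (SD, n = 3). HIST1H2BK at 133 ± 17.0 and HIST1H1C at 66.8 ± 5.66 (SD, n = 3) did so too, while H2AFX and H3F3A lay close.

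**Figure D1:**
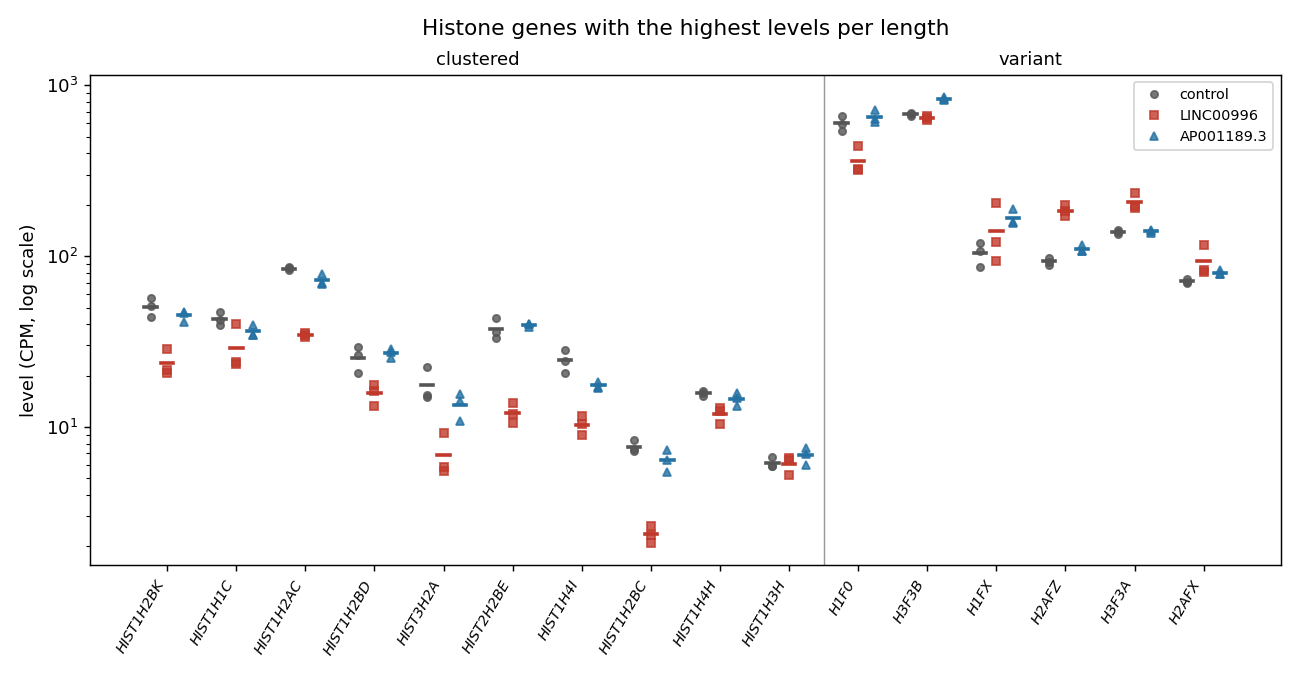
Level in CPM (log axis) of the 10 clustered and 6 variant histone genes with the highest mean level per length, for each of the 9 libraries (points) with the mean of each group (line). HIST1H2AC lies at 33.6 to 35.4 CPM with the LINC00996 plasmid against 82.7 to 86.3 in the control, while H2AFZ lies at 172 to 198 against 88.9 to 98.0.

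The comparison of the LINC00996 plasmid with the control asks what the RNA of these cells looks like when LINC00996 is made in excess. The summed level of the clustered histone genes with LINC00996 was 0.520 of that in the control, which is given as a description, and most of the tested clustered genes fell. Over all 71 genes, with no filter, the sum was 377, 364 and 361 CPM in the 3 control libraries and 206, 185 and 183 CPM in the 3 L996 libraries, which do not overlap. The mean was 367 ± 8.57 (SD, n = 3) in the control and 191 ± 13.0 (SD, n = 3) with LINC00996. Without the 5 genes with most counts the sum was 126 ± 4.78 CPM in the control and 76.2 ± 0.660 CPM with LINC00996 (SD, n = 3), a ratio of 0.602. The variant genes summed to 1978 ± 48.9 CPM in the control and to 2024 ± 233 CPM with LINC00996 (SD, n = 3), which overlap, and genes of that class moved in both directions. The clustered genes gave 15.5% to 15.8% of all histone counts in the control libraries and 8.26% to 8.97% in the L996 libraries. In bulk RNA, fewer cells that make an mRNA and less of it in each cell cannot be told apart.

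**Figure D2:**
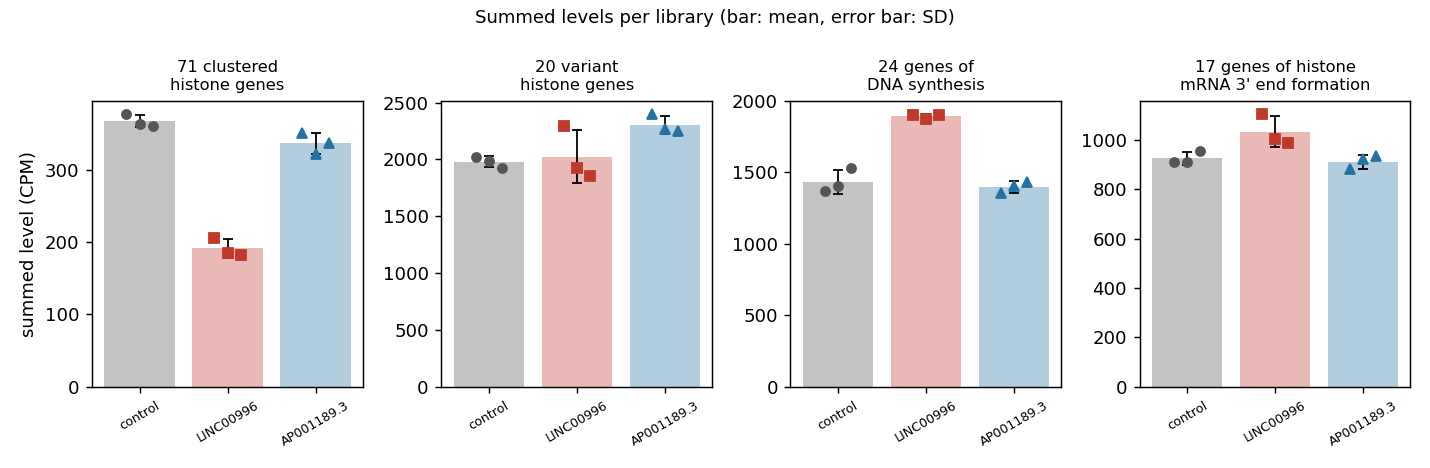
Summed level in CPM of the clustered and variant histone genes and of 2 lists of related genes, for each library (points), with the group mean (bar) and SD (error bar, n = 3). The clustered genes sum to 183 to 206 CPM with LINC00996 and to 361 to 377 CPM in the control, while the genes of DNA synthesis are higher with LINC00996 in all 3 libraries.

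Gene by gene, edgeR's quasi-likelihood test called 16 of the 27 tested clustered genes lower at a Benjamini-Hochberg adjusted p under 0.05 and 0 higher, where 11.6% of all 16097 genes tested were called lower and 10.7% higher. At least 10 counts in every library left 21 clustered genes, of which 14 were called lower and 0 higher, a filter that no gene passes through 1 group alone. The median log2 fold change of the 27 genes was -0.56, beside 0.01 over all genes tested. With DESeq2, 14 clustered genes were called lower and 0 higher, and at an unadjusted p under 0.05 in edgeR 16 were lower and 1 higher (HIST1H1E, named after its value was seen). The shares over all genes, here and below, are for edgeR at an adjusted p under 0.05. None is given for DESeq2 or for an unadjusted p. Scaled by library size alone, 14 members of both classes were called lower and 6 higher, against 17 lower and 4 higher with TMM. The number of members called, 21 in all, was 13 without control replicate 1 and 12 without control replicate 2. The 16 clustered genes called lower became 10 without L996 replicate 2, 9 without control replicate 1 and 8 without control replicate 2, with 0 called higher in each case.

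The H2A genes are taken first. HIST1H2AC (chr6:26124145-26139116, plus strand), the clustered gene with most counts, stood at 84.8, 82.7 and 86.3 CPM in the control and at 33.6, 35.4 and 34.3 CPM with LINC00996. The groups did not overlap, and the log2 fold change was -1.30 ± 0.09 (SE, adjusted p = 3.7e-06). HIST3H2A (chr1:228456979-228457873, minus strand) stood at 15.1, 15.5 and 22.5 CPM in the control and at 9.27, 5.53 and 5.85 CPM with LINC00996, with a log2 fold change of -1.36 ± 0.22 (SE, adjusted p = 0.00108). HIST1H2AG had a smaller change of -0.44 ± 0.15 (SE, adjusted p = 0.0494), with 7.89 to 7.92 CPM against 5.72 to 5.91 CPM, and this call was lost under 10 of 14 alternatives. Of the 5 tested H2A genes 3 fell and 2 did not pass the test.

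The H2B genes held the highest number of calls, with 8 of 10 lower and 0 higher. HIST2H2BE (chr1:149884459-149886652, minus strand) stood at 43.2, 35.8 and 33.3 CPM in the control and at 10.6, 13.8 and 11.9 CPM with LINC00996, a log2 fold change of -1.64 ± 0.14 (SE, adjusted p = 1.58e-05). HIST1H2BC (chr6:26114873-26123926, minus strand) went from 8.36, 7.48 and 7.20 CPM to 2.63, 2.10 and 2.33 CPM, which is 3.25-fold lower (adjusted p = 7.47e-05). All L996 libraries lay below all control libraries in both genes. HIST1H2BK (chr6:27146418-27146798, minus strand) stood at 57.0, 50.9 and 44.0 CPM in the control and at 28.7, 21.6 and 20.8 CPM with LINC00996 (log2 fold change -1.09 ± 0.15, SE, adjusted p = 0.000307), although its deposited model holds the coding part only. HIST1H2BJ, HIST1H2BD, HIST2H2BF, HIST1H2BE and HIST3H2BB were called lower with log2 fold changes of -1.15, -0.69, -0.83, -0.85 and -0.88. Of the 14 alternatives, 5 lost the call of HIST3H2BB, among them DESeq2, 4 that of HIST1H2BE, 2 that of HIST2H2BF and 1 that of HIST1H2BD. The other losses came without L996 replicate 2 or 3 or control replicate 1 or 2 for HIST3H2BB, without L996 replicate 2 or any control replicate for HIST1H2BE, without control replicate 1 or 2 for HIST2H2BF and without control replicate 1 for HIST1H2BD. The 2 H2B genes that did not pass, HIST1H2BN and HIST1H2BO, had log2 fold changes of 0.25 and 0.17 at levels of 1.04 to 2.68 CPM for HIST1H2BN.

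The remaining families held fewer tested genes. HIST1H4I (chr6:27138588-27139881, plus strand) stood at 20.7, 24.5 and 28.4 CPM in the control and at 8.94, 11.6 and 10.4 CPM with LINC00996 (log2 fold change -1.25 ± 0.15, SE, adjusted p = 0.00018). HIST1H4H was called lower by a smaller margin (-0.41 ± 0.13, SE, adjusted p = 0.0461), a call lost under 8 of 14 alternatives. The other 3 tested H4 genes did not pass. Of the 4 tested H3 genes, HIST1H3E and HIST2H3D were called lower with log2 fold changes of -0.71 and -1.51. The call of HIST1H3E was lost without control replicate 2, and that of HIST2H3D without L996 replicate 2 and without control replicate 2 or 3. HIST2H3D had only 9, 6 and 9 counts in the L996 libraries, against 18, 21 and 27 in the control. It therefore fell short of the 10-count minimum and had a value under 13 of the 14 alternatives. HIST1H3H did not differ beyond its spread, at 5.92 to 6.68 CPM in the control and 5.26 to 6.61 CPM with LINC00996, with a 95% interval of the log2 fold change from -0.35 to 0.30. HIST1H1C, a linker histone gene, stood at 42.1, 39.8 and 46.9 CPM in the control and at 40.1, 23.9 and 23.4 CPM with LINC00996. Its groups overlapped through L996 replicate 1, and its call (-0.56 ± 0.18, SE, adjusted p = 0.0475) was lost under 6 of 14 alternatives. HIST1H1E stood at 0.236 to 0.561 CPM in the control and 0.603 to 1.35 CPM with LINC00996 and did not pass (log2 fold change 1.08 ± 0.48, SE, adjusted p = 0.128).

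Of the 21 calls in this comparison, 11 held under all 14 alternatives. The clustered genes among them were HIST1H2AC, HIST2H2BE, HIST1H2BC, HIST1H4I, HIST1H2BK, HIST3H2A and HIST1H2BJ, and the variant genes were H2AFZ, H2AFV, H3F3A and H1F0. Without L996 replicate 1, 15 clustered genes were called lower and 0 higher, and with an offset for GC content, which was added after the data had been seen, 16 were called lower and 0 higher.

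**Figure D3:**
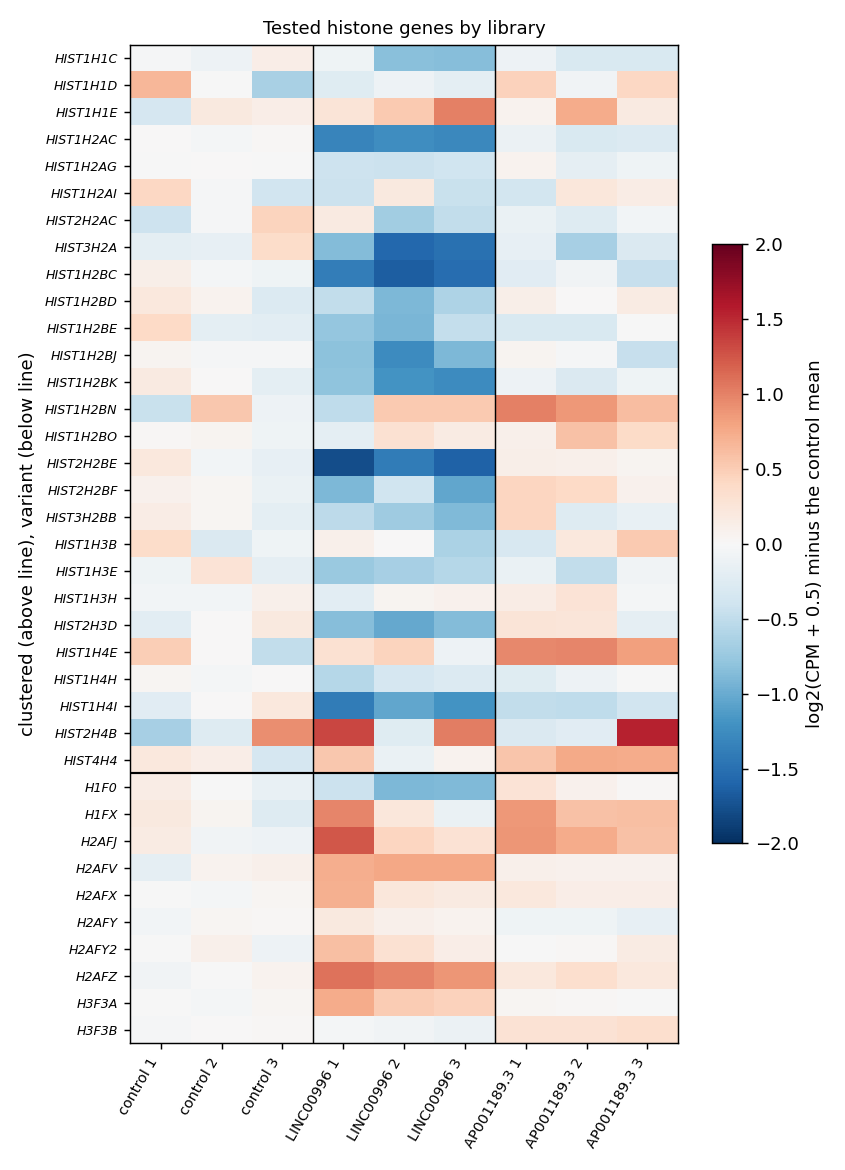
Level of the 37 tested histone genes in each of the 9 libraries, as log2(CPM + 0.5) minus the mean of the control libraries, with clustered genes above the horizontal line and variant genes below it. HIST1H2AC, HIST1H2BC and HIST2H2BE are blue in all 3 LINC00996 libraries, and H2AFZ, H2AFV and H3F3A are red there.

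Many clustered genes lie head to head with another on the opposite strand. There were 12 pairs of clustered genes whose deposited starts lay under 1000 bases apart and pointed away from each other, and in 4 pairs both genes could be tested. In the pair HIST1H2BC and HIST1H2AC, 219 bases apart, both fell, with log2 fold changes of -1.70 and -1.30. Both also fell in the pair HIST3H2A and HIST3H2BB, 234 bases apart, by 1.36 and 0.88 on the log2 scale, the call of HIST3H2BB being one that 5 alternatives lost. In the pair HIST1H2BJ and HIST1H2AG, 292 bases apart, the log2 fold changes were -1.15 and -0.44, both called. The call of HIST1H2AG was lost under 10 of 14 alternatives. In the pair HIST2H2BE and HIST2H2AC, 323 bases apart, HIST2H2BE fell while HIST2H2AC, at 0.883 to 2.02 CPM in the control and 0.635 to 1.59 CPM with LINC00996, did not pass the test. The promoter window of HIST1H2AC is shown, since both genes of this pair fell. It covers the stretch between the 2 deposited starts and runs on into HIST1H2AC, as RefSeq gives it on GRCh38.p14 (chr6:26123922-26124221, plus strand), and the capitals mark 3 motifs on either strand. The first is the TATA box, TATAAA. Another is the CCAAT box, written CCAAT. The last is the octamer, ATTTGCAT.
HIST1H2AC promoter: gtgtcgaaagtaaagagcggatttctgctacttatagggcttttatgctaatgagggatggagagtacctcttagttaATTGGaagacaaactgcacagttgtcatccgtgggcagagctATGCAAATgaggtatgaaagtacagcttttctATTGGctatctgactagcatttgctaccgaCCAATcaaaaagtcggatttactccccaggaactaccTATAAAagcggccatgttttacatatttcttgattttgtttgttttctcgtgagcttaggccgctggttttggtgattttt
The CCAAT letters occur in it 3 times over both strands, the octamer and TATAAA once each, and none of the matches overlap. RefSeq windows of 300 bases could be matched to 80 of the 91 members, 65 clustered and 15 variant. On either strand TATAAA stood in 43 of the 65 clustered windows (66.2%), beside 12.0% of 27305 promoter windows. CCAAT stood in 55 of the 65, beside 35.7% of all windows. By family, it was in 3 of 13 H4 windows and in every window of the other clustered families. The octamer ATTTGCAT stood in 25 of the 65, beside 1.80% of all windows, with 13 of 17 H2B windows, 11 of 16 H2A windows, 1 of 13 H3 windows and 0 of the H1 and H4 windows. It was in 0 of the 15 variant windows. The windows are not all separate stretches. That of HIST1H2BC (chr6:26123877-26124176) overlaps that of HIST1H2AC, so the same letters can be counted in 2 windows. A match of letters is a description of the window and not a bound site.

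The variant genes that passed the test with LINC00996 were mostly higher. Of the 10 tested, 4 were called higher and 1 lower, and their median log2 fold change was 0.40, beside 0.01 over all genes. The median was 0.21 without L996 replicate 1, and over the 14 alternatives 3 to 7 variant genes were called higher and 1 lower. Over all genes tested 10.7% were called higher and 11.6% lower. H2AFZ (chr4:99948086-99950388, minus strand), the main gene of the replacement histone H2A.Z, stood at 88.9, 92.4 and 98.0 CPM in the control and at 198, 185 and 172 CPM with LINC00996, without overlap. It was 1.98-fold higher (log2 fold change 0.99 ± 0.09, SE, adjusted p = 2.68e-05). H2AFV (chr7:44826791-44848083, minus strand), which encodes another form of H2A.Z, rose from 63.8, 76.5 and 78.0 CPM to 120, 125 and 124 CPM (1.69-fold, adjusted p = 0.000331). The relative share of H2AFZ in the sum of both per length was 71.4% to 74.2% in the control and 74.1% to 77.3% with LINC00996.

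H3F3A (chr1:226061851-226072001, plus strand) and H3F3B (chr17:75776434-75785893, minus strand) both encode H3.3, the H3 that is placed outside DNA replication. H3F3A stood at 138, 135 and 143 CPM in the control and at 233, 197 and 191 CPM with LINC00996 (log2 fold change 0.58 ± 0.10, SE, adjusted p = 0.00146). H3F3B stood at 664, 678 and 689 CPM in the control and at 658, 642 and 627 CPM with LINC00996, and its change did not pass the test (-0.08 ± 0.08, SE, adjusted p = 0.519). Per length, H3F3A made up 28.0% to 28.8% of the sum of both genes in the control and 37.3% to 40.8% with LINC00996, without overlap. A share of 8.76% of the 150-base words of H3F3A also occurs in its pseudogenes and other genes, which bears on how reads were assigned.

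H1F0 (chr22:37805093-37807436, plus strand), the gene of the linker histone H1.0 that is typical of cells that divide little, was the variant gene that fell. It stood at 660, 597 and 539 CPM in the control and at 444, 321 and 325 CPM with LINC00996 (log2 fold change -0.72 ± 0.13, SE, adjusted p = 0.00207). H2AFJ, an H2A gene expressed outside replication, was called higher (0.72 ± 0.21, SE, adjusted p = 0.031), with 99.6 CPM in L996 replicate 1, 56.8 and 51.6 CPM in the others and 39.1 to 47.2 CPM in the control. The call was lost with the GC content offset and without each control replicate in turn. Its adjusted p was 0.197 at the highest among the alternatives. H2AFX, whose protein marks DNA breaks when phosphorylated, stood at 70.0 to 74.0 CPM in the control and at 117, 83.5 and 81.2 CPM with LINC00996 and narrowly missed the threshold (adjusted p = 0.0562). H1FX reached 204 CPM in L996 replicate 1 and 121 and 94.1 CPM in the others, against 86.7 to 119 CPM in the control, and did not pass (adjusted p = 0.281).

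**Figure D4:**
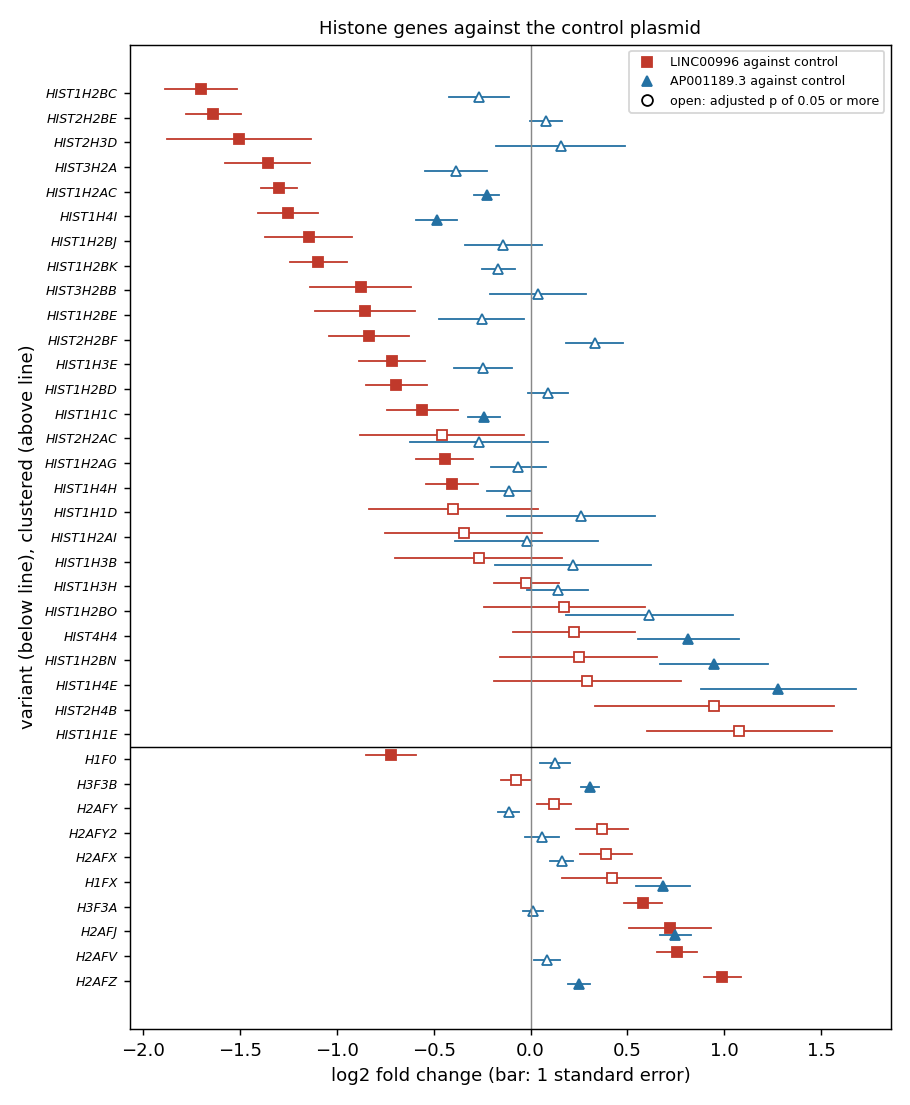
Log2 fold change of each tested histone gene against the control plasmid for LINC00996 (squares) and AP001189.3 (triangles), with 1 standard error on either side and open symbols where the adjusted p was 0.05 or more. The 16 clustered genes called lower with LINC00996 lie between -1.70 and -0.41, and the same control libraries serve both comparisons.

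With the AP001189.3 plasmid the clustered genes that were called went in both directions and the variant genes that were called were higher. Both comparisons with the control use the same 3 control libraries, so the values are given side by side only. The summed level of the 71 clustered genes was 352, 322 and 337 CPM in the RP11 libraries, 337 ± 14.6 (SD, n = 3), against 367 ± 8.57 in the control, which is 0.917 of it. Of 25 tested clustered genes 3 were called lower and 3 higher, and of the 10 variant genes 4 were called higher and 0 lower, where 8.49% of all 16023 genes tested were called lower and 11.4% higher. With 3 of 25 in each direction, the clustered genes are near the background. The RP11 and control libraries also differed in their relation to GC content, and with an offset for it 3 clustered genes were called lower and 3 higher. The median log2 fold changes were -0.02 for clustered and 0.14 for variant genes, beside -0.0013 over all genes tested. DESeq2 called 0 clustered genes higher and 2 lower. The 10 member calls became 6 with DESeq2, 1 with all 9 libraries in 1 fit, 4 without RP11 replicate 2 and 6 without RP11 replicate 3.

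Among the clustered genes, HIST1H4I stood at 17.2, 17.0 and 18.5 CPM with AP001189.3, below the 20.7 to 28.4 CPM of the control (log2 fold change -0.48 ± 0.11, SE, adjusted p = 0.00196). HIST1H2AC stood at 78.3, 68.4 and 70.1 CPM (-0.23 ± 0.06, SE, adjusted p = 0.0108) and HIST1H1C was lower by a similar margin (-0.24 ± 0.08, SE, adjusted p = 0.0358). Of the 14 alternatives, 1 lost the call of HIST1H4I, 4 that of HIST1H2AC, among them the GC content offset and the fits without RP11 replicate 2 or 3, and 5 that of HIST1H1C, among them DESeq2 and the fits without control replicate 3 or RP11 replicate 2 or 3. HIST1H2BN, HIST1H4E and HIST4H4 were called higher with log2 fold changes of 0.95, 1.28 and 0.81, all at levels below 4 CPM. HIST1H4E had 24 to 28 counts in the RP11 libraries and 5 to 18 in the control, and these 3 calls were each lost under 6 or 7 of 14 alternatives. HIST2H2BE, which fell with LINC00996, stood at 40.2, 39.9 and 38.7 CPM with AP001189.3, and the 95% interval of its log2 fold change against the control was -0.09 to 0.25.

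Among the variant genes, H3F3B rose to 831, 825 and 854 CPM with AP001189.3 (log2 fold change 0.30 ± 0.05, SE, adjusted p = 2.75e-05), a call that held under all 14 alternatives. H2AFJ rose to 78.1, 70.9 and 63.4 CPM (0.75 ± 0.08, SE, adjusted p = 5.4e-07) and H1FX to 189, 156 and 158 CPM (0.68 ± 0.14, SE, adjusted p = 0.021). Both lost their call with all 9 libraries in 1 fit, and H1FX also without control replicate 2. H2AFZ was 1.19-fold higher, at 108, 117 and 108 CPM (adjusted p = 0.00329), a call lost with all 9 libraries in 1 fit, with the gene length offset and without RP11 replicate 2. H3F3A stood at 142, 140 and 137 CPM and did not pass, and its share of the H3.3 pair per length was 23.9% to 24.98%. The share of H3F3A in the pair was thus below the control in all RP11 libraries and above it in all L996 libraries.

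The direct comparison of LINC00996 with AP001189.3 tests whether both plasmid groups differ, with no use of the control libraries. Of 27 tested clustered genes 11 were called lower with LINC00996 and 0 higher, and of 10 variant genes 3 were called higher and 2 lower, where 12.1% of all 16095 genes tested were called lower and 9.38% higher. The median log2 fold change of the clustered genes was -0.66, beside 0.02 over all genes. Without L996 replicate 1, 4 variant genes were called higher and 4 lower. HIST2H2BE was 3.29-fold lower (adjusted p = 3.93e-06), HIST1H2AC 2.11-fold lower (adjusted p = 2.06e-05) and HIST1H2BC 2.72-fold lower (adjusted p = 0.000346). All 11 clustered genes called lower here were also called lower against the control, a count over comparisons that share the L996 libraries. H2AFZ, H2AFV and H3F3A were higher than with AP001189.3 by 0.73, 0.67 and 0.56 on the log2 scale, and H1F0 and H3F3B were lower by 0.85 and 0.39. H2AFJ and H1FX did not differ beyond their spread, with 95% intervals of -0.43 to 0.36 and -0.71 to 0.17. Of these 16 calls, 13 held under all 14 alternatives, and HIST2H3D held under the 13 in which it had a value. Its L996 libraries, with 9, 6 and 9 counts, fell short of the 10-count minimum. DESeq2 called 10 clustered genes lower and 0 higher, and at an unadjusted p under 0.05 in edgeR 17 were lower and 0 higher. For these counts no share over all genes is given.

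The genes that surround histone production are given by lists. Of 24 genes of DNA synthesis, 16 were called higher and 0 lower with LINC00996 against the control, with a median log2 fold change of 0.51. Over all genes tested 10.7% were called higher and 11.6% lower, with a median of 0.01. At an unadjusted p under 0.05, for which no share over all genes is given, 22 were higher and 0 lower. DESeq2 called 16 higher and 0 lower, again without such a share. The summed level of the 24 genes was 1369 to 1529 CPM in the control and 1871 to 1900 CPM with LINC00996. These ranges do not overlap, and the direction is opposite to that of the sum of the clustered histone genes. The helicase subunit MCM6 went from 36.8, 37.1 and 38.0 CPM to 59.2, 67.8 and 69.2 CPM (0.81 ± 0.10, SE, adjusted p = 0.000221). GINS2, which joins that helicase, and CDC6, which loads it, had log2 fold changes of 0.80 and 0.62. With AP001189.3 1 gene of this list was called higher (MCM7) and 1 lower (PCNA), beside 11.4% and 8.49% of all genes tested, and LINC00996 against AP001189.3 gave 17 higher and 0 lower, beside 9.38% and 12.1%.

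Of 17 genes of histone mRNA 3′ end formation, 4 were called higher with LINC00996 and 0 lower, beside 10.7% and 11.6% of all genes tested. These were SNRPE, SNRPF and SNRPG, which encode proteins of the Sm ring shared with the spliceosome, and LSM10, a protein of the U7 particle, with log2 fold changes of 0.59, 0.58, 0.71 and 0.47. SLBP, the protein that binds the stem-loop and a member of both lists, stood at 47.8 to 52.4 CPM in the control and 54.8 to 62.7 CPM with LINC00996 and did not pass the test (0.23 ± 0.10, SE, adjusted p = 0.134). NPAT, which drives transcription of the clustered genes, did not pass either (-0.20 ± 0.17, SE, adjusted p = 0.429). With AP001189.3, where 11.4% of all genes tested were called higher and 8.49% lower, 0 of the 17 were called in either direction by edgeR or by DESeq2, and at an unadjusted p under 0.05 in edgeR 1 was higher and 1 lower.

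Of 24 tested genes of histone chaperones and exchange, 7 were called higher and 1 lower with LINC00996, beside 10.7% and 11.6% of all genes tested. SSRP1, a subunit of the FACT complex, HAT1, which acetylates newly made H4, and ASF1B, a chaperone of H3 and H4, rose by log2 fold changes of 0.52, 0.70 and 0.49, and UBN2, of the complex that places H3.3, fell by 0.47 on the log2 scale. With AP001189.3, 4 were called higher and 2 lower, which is near the 11.4% and 8.49% of all genes tested. NAP1L1, a chaperone of H2A and H2B, fell by 0.36 on the log2 scale (adjusted p = 4.78e-06), and HIRA, the namesake subunit of that H3.3 complex, rose by a log2 fold change of 0.39 (adjusted p = 0.0388).

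RNAs that lack a poly(A) tail were counted as well. Of the 27 rows listed, 23 had 3 counts or fewer in every library, and the list summed to 4.09 to 9.19 CPM in the control, 129, 20.5 and 18.5 CPM with LINC00996 and 17.8 to 24.9 CPM with AP001189.3. RN7SL2, a signal recognition particle RNA, made up most of it, at 126 CPM in L996 replicate 1. For LINC00996 against the control only 2 of the listed rows were tested, and 0 were called in either direction. The part of these RNAs in the results was not tested.

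Many clustered histone genes are short, so gene length was set beside the folds. Among other protein-coding genes with a deposited length of at most 1000 bases, 34 of 114 tested were called higher and 14 lower with LINC00996, with a median log2 fold change of 0.36. The 13 tested clustered genes of that length had a median of -0.56, with 7 called lower and 0 higher. Over 1000 and up to 2000 bases, 2 of 5 clustered genes were called lower, with medians of -0.023 for them and 0.21 for other genes. Among those other genes, 226 of 934 were called higher and 88 lower. Over 2000 and up to 4000 bases, 7 of 8 clustered genes were called lower, with medians of -0.77 and 0.10. Of the other genes of that length, 570 of 3613 were called higher and 381 lower. Over 4000 bases the 1 clustered gene, HIST1H2BN, was not called, at 0.25, while other genes had a median of -0.03, with 751 of 8685 called higher and 1231 lower. With an offset for gene length, 16 clustered genes were called lower and 0 higher, and their median was -0.69. The part of gene length in the results was otherwise not tested.

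**Figure D5:**
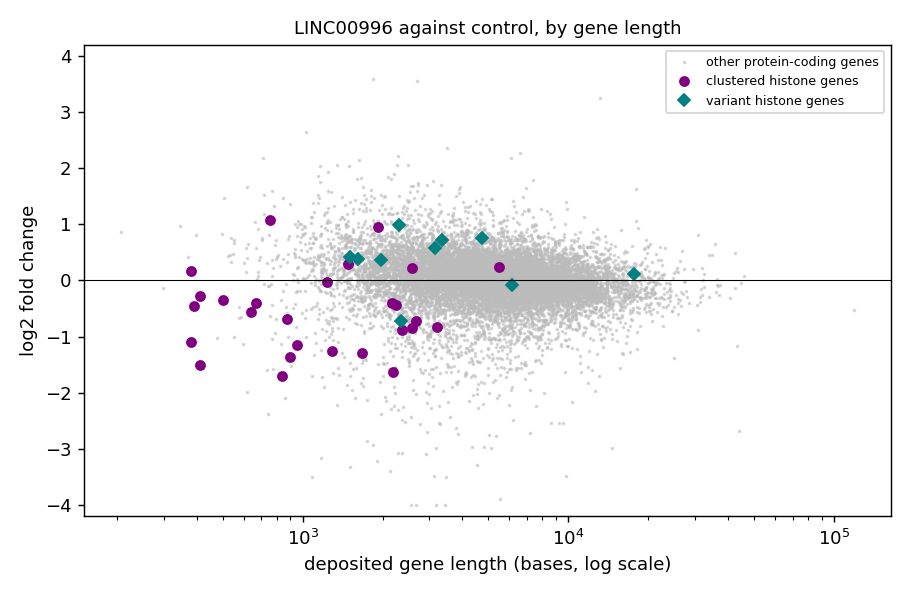
Log2 fold change of LINC00996 against control for each tested protein-coding gene by deposited gene length (log axis), with clustered and variant histone genes marked and values beyond 4 in size drawn at 4. Most clustered genes lie below 0 at lengths at which other genes, with a median of 0.36 up to 1000 bases, lie on both sides of it.

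Some members could not be counted with certainty. The models of 32 members share at least 1 word of 150 bases with another gene. HIST2H4A and HIST2H4B share 92.2% and 97.0% of their words with other genes, chiefly each other, and HIST2H4A had 90 counts in control replicate 2 and 0 to 10 elsewhere, so the pair is uncertain. Among others, HIST2H2AA3, HIST1H4K and both rows named H2BFS share all of their words with another gene. HIST2H3D, which was called lower with LINC00996, shares 12.6% of its words with HIST2H3C, HIST2H3A and other genes. HIST1H2BN overlaps HIST1H2AL on its own strand, and H2AFZ, H2AFY, H2AFY2, H3F3A, H3F3B, H1FX, HIST1H2BE and HIST2H2BF overlap exons of a gene on the opposite strand. The counting was not stated to use strand, so reads from such overlaps cannot be told apart.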

How the data were processed

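Poly(A) RNA of 9 A549 libraries was sequenced after selection on poly-T beads. The counts per gene are raw read counts as deposited by the authors, and the table also holds gene positions and lengths per the file headers. The submitters' processing notes name HISAT2 2.0.5, featureCounts 1.5.0-p3, DESeq2 1.20.0 and edgeR 3.22.5, and the build is GRCh38. Whether counting used strand, and how reads that fit several genes were treated, is not given in the sources used here. Members and gene lists were chosen with earlier results of these data known.

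Counts were tested over all genes with edgeR 4.0.16 in R 4.3.3 (filterByExpr, TMM factors, robust quasi-likelihood fit, two-sided), separately for each pair of groups, with Benjamini-Hochberg adjustment over all genes tested and a threshold of 0.05. The SE was the size of the log2 fold change divided by the root of F, and intervals are 95% (1.96 SE). CPM used TMM factors over all 9 libraries. The fit was tested on simulated data, but no result of that test is given here, so it lends the values no support. Alternatives were DESeq2 1.42.0, scaling by library size, no filter, a minimum of 10 counts per library, a joint fit of the 3 groups, a replicate block, an offset for gene length, leaving out each library, and an offset for GC content (loess span 0.75) added after the data were seen.

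Named genes are the members called in a comparison (at most 25 each), the 10 clustered and 6 variant members highest per length, up to 5 members with 3 counts or fewer in every library, and up to 4 called genes of each list per comparison. Any other gene was named after its values were seen, and 1 gene that the rule names is not reported here. Promoters are from RefSeq (GRCh38.p14) and were matched to 80 members.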

Additional observations from a re-analysis of the deposited data

How the results depend on the processing

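In 3 libraries a group, counts near the floor limit the low clustered genes, and leaving out 1 library also removes degrees of freedom. Among the called genes, 568 values kept their direction and side of the threshold, 86 kept the direction but lost the call and 0 reversed. With LINC00996 against control, the 21 calls ranged from 12 to 21 without 1 library. The median of the clustered genes, -0.56, was -0.31 with DESeq2, -0.30 with no filter, -0.71 with at least 10 counts, -0.69 with the length offset and -0.76 to -0.46 without 1 library, and the variant median, 0.40, was 0.21 to 0.56 without 1 library. DESeq2 and the fit with no filter test more low genes. With AP001189.3 against control, the 10 calls were 6 with DESeq2, 1 with all 9 libraries in 1 fit and 4 to 11 without 1 library. The clustered median, -0.02, was 0.036 with DESeq2, 0.039 with no filter, -0.067 with at least 10 counts, 0.059 with all 9 libraries, -0.14 with the length offset, -0.066 with the GC offset and -0.065 to 0.12 without 1 library. The variant median, 0.14, was 0.10 with DESeq2, 0.10 with no filter, 0.057 with the length offset and 0.12 to 0.18 without 1 library. With LINC00996 against AP001189.3, the 16 calls were 24 with the GC offset and 14 to 24 without 1 library (24 without L996 replicate 1). The clustered median, -0.66, was -0.55 with DESeq2, -0.60 with library size alone, -0.54 with no filter, -0.74 with at least 10 counts, -0.59 with the GC offset and -0.77 to -0.58 without 1 library, and the variant median, 0.23, was 0.10 to 0.28 without 1 library. The cause of the other moves was not tested.

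Genes that reversed had not been called. With library size alone, HIST1H3H was 0.012 for LINC00996 against control, H3F3A -0.012 for AP001189.3 against control and H2AFJ 0.026 for LINC00996 against AP001189.3. For AP001189.3 against control, the length offset gave HIST2H2BE -0.0073, H3F3A -0.051, HIST1H2BD -0.030 and HIST3H2BB -0.043, and the GC offset gave HIST2H3D -0.13, HIST3H2BB -0.030 and H2AFX -0.10. Without 1 library, LINC00996 against control ranged from -0.050 to 0.39 for HIST4H4, -0.087 to 0.075 for HIST1H3H, -0.0011 to 0.66 for HIST1H2BN and -0.071 to 0.82 for HIST1H4E. AP001189.3 against control ranged from -0.0045 to 0.14 for H2AFV, -0.38 to 0.0045 for HIST1H2BE, -0.0047 to 0.034 for H3F3A, -0.042 to 0.20 for HIST1H2BD, -0.25 to 0.18 for HIST3H2BB and -0.26 to 0.020 for HIST1H2BJ. LINC00996 against AP001189.3 ranged from -0.39 to 0.14 for H2AFJ.

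The replicate block gave 23, 13 and 16 calls in the 3 comparisons, against 21, 10 and 16 without it. Deviations of same-numbered libraries correlated between -0.0204 and 0.149 over 16560 genes, so the numbers were not taken to pair the libraries. The narrower symbol pattern gave 19, 8 and 13 calls.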
